A study of Homo sapiens with 8 samples.

Results

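The m6A peaks of 10 zinc transporter genes were examined in Mel624 melanoma cells with and without knockdown of FTO. The set holds SLC39A14, 7 other genes of the SLC39 family (SLC39A6, SLC39A7, SLC39A8, SLC39A9, SLC39A10, SLC39A11 and SLC39A13) and 2 genes of the SLC30 family (SLC30A1 and SLC30A5). Its members were every row with one of these symbols in the peak lists of shNC and shFTO cells. The set was built around SLC39A14 because its peak has the highest enrichment score of the shNC list, so the gene was chosen by this measured score, which is given as a description without a test. Of the 10 genes, 9 had peaks in both lists. Over all genes, 10078 had a peak in either list, 9296 in the shNC list and 9475 in the shFTO list, so most listed genes were in both. SLC39A8 had no row in either list. The members held 16 of the 19072 peaks of the shNC list and 16 of the 18551 peaks of the shFTO list.

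Mel624 is an established human melanoma line. In shFTO cells a short hairpin RNA targeted FTO, an enzyme that removes the methyl group of m6A, and shNC cells carried the control hairpin. The labels name no further treatment, and the paper's methods describe lentiviral infection of the cells followed by selection with puromycin. There were 2 replicates per group, all of this 1 line, with an m6A-IP and an input library for every replicate (8 libraries). m6A-seq uses an antibody to enrich mRNA fragments with N6-methyladenosine, and regions of an mRNA whose reads are enriched by this step over the input are called as peaks. The score of a peak is the log2 of its IP reads over the IP reads of that mRNA's median window, divided by the same quotient of the input. A score is thus a level of enrichment within 1 mRNA, and it holds neither the amount of that mRNA nor the size of the library. A score is listed for each replicate without its reads, and the depth is unknown. The labels do not say whether the replicates were separate cultures, so a p-value here reflects only how much these libraries varied, which may be technical.

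All 7 melanocyte markers examined had peaks in both lists, and none of the 4 leukocyte, 3 keratinocyte and 3 fibroblast markers had one. A peak marks enrichment within an mRNA, so a missing peak does not show that a marker's mRNA was absent. FTO itself had a start codon peak of 2.85 ± 0.48 (log2 score, SD, n = 2) in shNC and 2.28 ± 0.19 in shFTO. Its coding peak had 3.39 ± 0.25 in shNC and 2.80 ± 0.43 in shFTO, and a stop codon peak of 1.48 ± 0.12 was listed in shNC only. These scores tell nothing of the level of FTO mRNA. Over the 12117 pairs of peaks compared below, the correlation across peaks between any 2 replicates lay between 0.879 and 0.925, and it was 0.901 within shNC and 0.908 within shFTO. The highest value was that between shNC replicate 2 and shFTO replicate 1, above both values within a group. Peaks are not independent replicates.

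Zinc is a cofactor of many enzymes and transcription factors, and its level in the cytosol is set by families of membrane carriers that work in opposite directions. SLC39 proteins, also called ZIPs, bring zinc into the cytosol from outside the cell or from organelles. SLC30 proteins, also called ZnTs, take zinc out of the cytosol, into organelles or out of the cell. SLC39A14 (ZIP14) also carries iron and manganese, as does its close relative SLC39A8 (ZIP8). m6A is laid down on mRNA mainly in a short consensus sequence, of which GGACU is a frequent form, and it is found most densely around stop codons and in 3′UTRs.

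The peak lists mark the GGACU matches of each peak by their position on the RefSeq isoform. The members' sites are shown because they are the listed matches to the m6A consensus under these peaks. Each site was read from GENCODE version 44 transcripts and checked on hg38, and those printed are given 5′ to 3′ as RNA, 25 nt long, with the GGACU in capitals. In SLC39A7 a single peak over the start codon region held a cluster of 3 sites, all in the coding sequence, and in SLC39A9 the sites were spread over the 5′UTR, the coding sequence and the distal 3′UTR.
SLC39A7 position 463, chr6:33201285-33201289, plus strand, CDS: gguggccgugGGACUgcugaccugg
SLC39A7 position 502, chr6:33201324-33201328, plus strand, CDS: ucugguggcuGGACUcgggggucau
SLC39A7 position 543, chr6:33201365-33201369, plus strand, CDS: aucugcaagaGGACUuccauggcca
SLC39A9 position 188, chr14:69398852-69398856, plus strand, 5′UTR: gagaccugcaGGACUccuuuccuca
SLC39A9 position 229, chr14:69398893-69398897, plus strand, 5′UTR: gaguuugcugGGACUggugggcugg
SLC39A9 position 1279, chr14:69455747-69455751, plus strand, CDS, shNC peak only: agcugcuuuuGGACUgguuuccuuc
SLC39A9 position 1387, chr14:69455855-69455859, plus strand, CDS: gacauacuuaGGACUgaguaagagc
SLC39A9 position 4798, chr14:69461762-69461766, plus strand, 3′UTR: ugguagcuagGGACUgaacacagga
SLC39A11 position 1392, chr17:72647335-72647339, minus strand, 3′UTR, shFTO peak only: gccacugaauGGACUcucucuucag

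Position counts from the 5′ end of the isoform and marks the C of GGACU, and the coordinates are those of the 5 capitals. The sites of SLC39A14 and SLC39A13 are not printed, and the single site of SLC30A1, at position 1593, could be placed at more than 1 point of the gene's transcripts and is not printed.

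The members' peaks covered every part of the mRNA. In shNC, 5 of the 16 peaks were listed in the 3′UTR, 4 in the CDS, 3 at the start codon, 3 at the stop codon and 1 in the 5′UTR. In shFTO there were 4 in the 3′UTR, 4 in the CDS, 3 at the start codon, 4 at the stop codon and 1 in the 5′UTR. The median width was 280.5 nt (239 to 522) in shNC and 295 nt (102 to 522) in shFTO, against 251 and 256 nt over all peaks. With 1.78 peaks per gene in each list, the 9 genes held slightly fewer peaks than the 2.05 and 1.96 per gene over all genes, a description without a test.

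**Figure D1:**
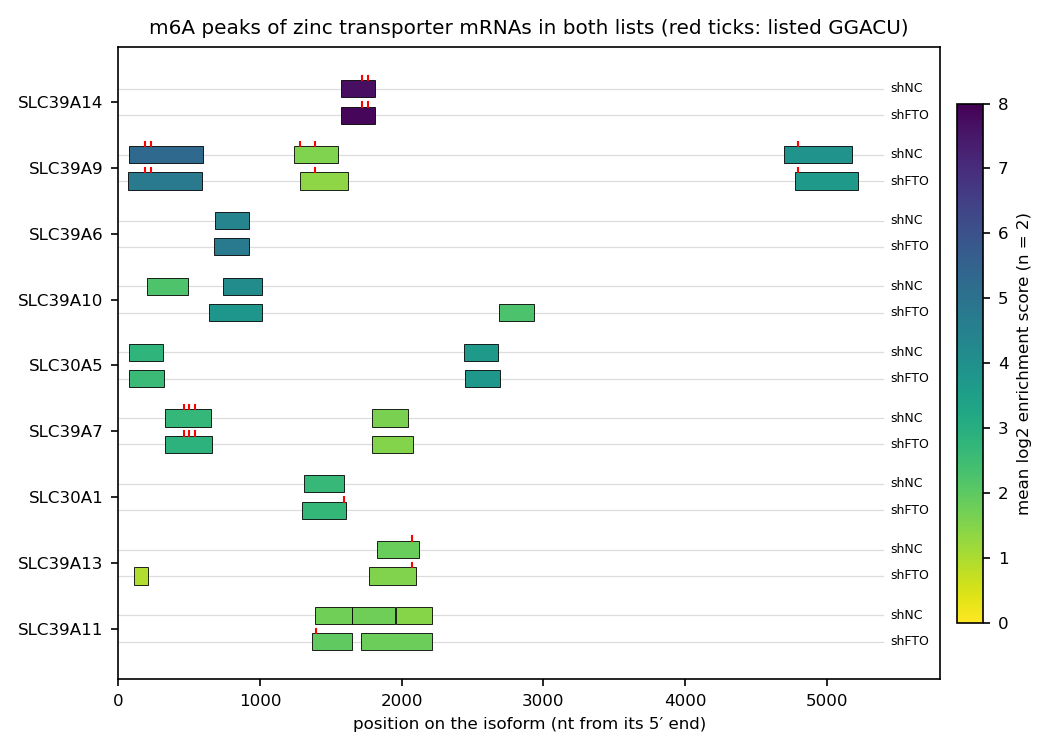
Peaks of the 9 zinc transporter mRNAs along their RefSeq isoforms, in nt from the 5′ end, with the shNC list above the shFTO list for each gene, the fill showing the mean log2 enrichment score of 2 replicates and red ticks the listed GGACU. Most peaks lie at nearly the same place in both lists, SLC39A14 has 1 dark peak with 2 ticks, and the peaks without a partner are in SLC39A10 and SLC39A13.

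A GGACU lay in 6 of the 16 member peaks of shNC (37.5%, exact 95% interval 15.2 to 64.6) and in 8 of the 16 of shFTO (50%, 24.7 to 75.3). Over all peaks the share was 36.3% (35.6 to 37.0) in shNC and 38.1% (37.4 to 38.9) in shFTO, inside both of the members' intervals, which cover counting error only. Of the 11 member sites of the shNC list, 5 lay in SLC39A9, 3 in SLC39A7, 2 in SLC39A14 and 1 in SLC39A13. The 12 sites of the shFTO list lay in these 4 genes and, with 1 each, in SLC39A11 and SLC30A1, and no peak of SLC39A6, SLC39A10 or SLC30A5 held one in either list. Peaks with at least 2 sites were 4 of the 16 member peaks in shNC (25.0%) and 3 of the 16 in shFTO (18.75%). Over all peaks the shares were 8.42% and 8.85%. These few member peaks lay in SLC39A14, SLC39A7 and SLC39A9 only, and the difference from all peaks was not tested.

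Sites that were listed in 1 group only went with the borders of the peaks. The coding peak of SLC39A9 began at position 1241 in shNC and at 1282 in shFTO, past the site at 1279. In SLC30A1 the shNC peak ended at 1591 and the shFTO peak at 1604, beyond the site at 1593. The 3′UTR peak of SLC39A11 began at 1391 in shNC and at 1368 in shFTO, and only the second list counts the site at 1392. Within 50 nt of the peak centre, a GGACU was found in 3 of 16 member peaks of shNC (18.75%, 4.05 to 45.6) and 2 of 16 of shFTO (12.5%, 1.55 to 38.3), close to the 18.2% and 18.9% of all peaks. Those of SLC39A14 and of the SLC39A7 start codon region were among them in both lists.

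SLC39A14 (chromosome 8, 22367278 to 22434129, GRCh38) had a single peak, listed at the stop codon, which spanned positions 1575 to 1813 of its isoform in both lists. Its score was 7.98 and 7.40 in the 2 shNC replicates and 7.88 and 7.83 in the 2 shFTO replicates. The means were 7.69 ± 0.41 in shNC and 7.86 ± 0.04 in shFTO (log2 score, SD, n = 2), and both shFTO replicates lay within the range of the shNC replicates. The difference of 0.17 is given without a test, since the shNC score chose the gene. Only 4.54% of all compared pairs had the same start and the same end in both lists, as this peak did. Its 2 GGACU sites lay 21 and 63 nt after the stop codon and were listed in both groups.

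The peak ranked 1st in shNC by its mean, with HSPA13, an HSP70 family member, next at 7.52 ± 0.48, SLC25A36, a mitochondrial carrier, at 7.46 ± 0.39 and IL6ST, the shared signalling subunit of interleukin-6 type receptors, at 7.43 ± 0.03. The order at the top did not exceed the spread of the replicates. In shNC replicate 1 the SLC39A14 peak ranked 1 and in replicate 2 it ranked 7. In shFTO, whose scores had no part in the choice, it ranked 2 in each replicate and by the mean, behind HSPA13 at 8.24 ± 0.11. Its score was the highest among the stop codon peaks of each list, in shNC as a consequence of the choice. The medians of these peaks were 2.92 in shNC and 2.95 in shFTO.

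The genes whose pattern came closest to that of SLC39A14 were sought by Euclidean distance over the 4 replicate scores, among the highest shNC peaks of 6964 other genes. IL6ST was nearest at a distance of 0.795, with 7.41 and 7.45 in shNC and 7.39 and 7.58 in shFTO. HSPA13 followed at 1.07 and SLC25A36 at 1.10. EMC1, a subunit of the endoplasmic reticulum membrane protein complex, lay at 1.56, and IMPAD1, a Golgi nucleotide phosphatase, at 1.72. The 5 genes were those that share its high level in both groups, and 3 of their peaks, those of IL6ST, HSPA13 and EMC1, held no listed GGACU in shNC.

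The other transporters lay below SLC39A14 in both groups, which in shNC follows from the choice of that gene by its score. The highest peak of each gene in shNC ran from 7.69 ± 0.41 for SLC39A14 through SLC39A9 (5.29 ± 0.12), SLC39A6 (4.39 ± 0.50), SLC39A10 (4.14 ± 0.14), SLC30A5 (3.67 ± 0.66), SLC39A7 (2.68 ± 0.28) and SLC30A1 (2.66 ± 0.35) to SLC39A13 (1.83 ± 0.24) and SLC39A11 (1.76 ± 0.68). SLC39A14, which was chosen by this score, and SLC39A9 each stood apart from their neighbours, with no overlap of the replicates. The replicates of SLC39A6 and SLC39A10, of SLC39A10 and SLC30A5, of SLC39A7 and SLC30A1 and of SLC39A13 and SLC39A11 overlapped, so these neighbours have no order.

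In shFTO the same genes held the first 7 places, with SLC39A14 at 7.86 ± 0.04, SLC39A9 at 4.74 ± 0.53, SLC39A6 at 4.73 ± 0.13, SLC39A10 at 3.80 ± 0.19, SLC30A5 at 3.74 ± 1.67, SLC39A7 at 2.85 ± 0.05 and SLC30A1 at 2.71 ± 0.33. SLC39A11 (1.95 ± 0.46) and SLC39A13 (1.51 ± 0.13) came last. Here the replicates of SLC39A9 and SLC39A6, of SLC39A10 and SLC30A5, of SLC30A5 and SLC39A7 and of SLC39A7 and SLC30A1 overlapped. The median score of the 16 member peaks was 2.67 in shNC and 2.64 in shFTO, near the 2.55 and 2.52 of all peaks, and 9 of 16 lay above the list's median in each group.

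**Figure D2:**
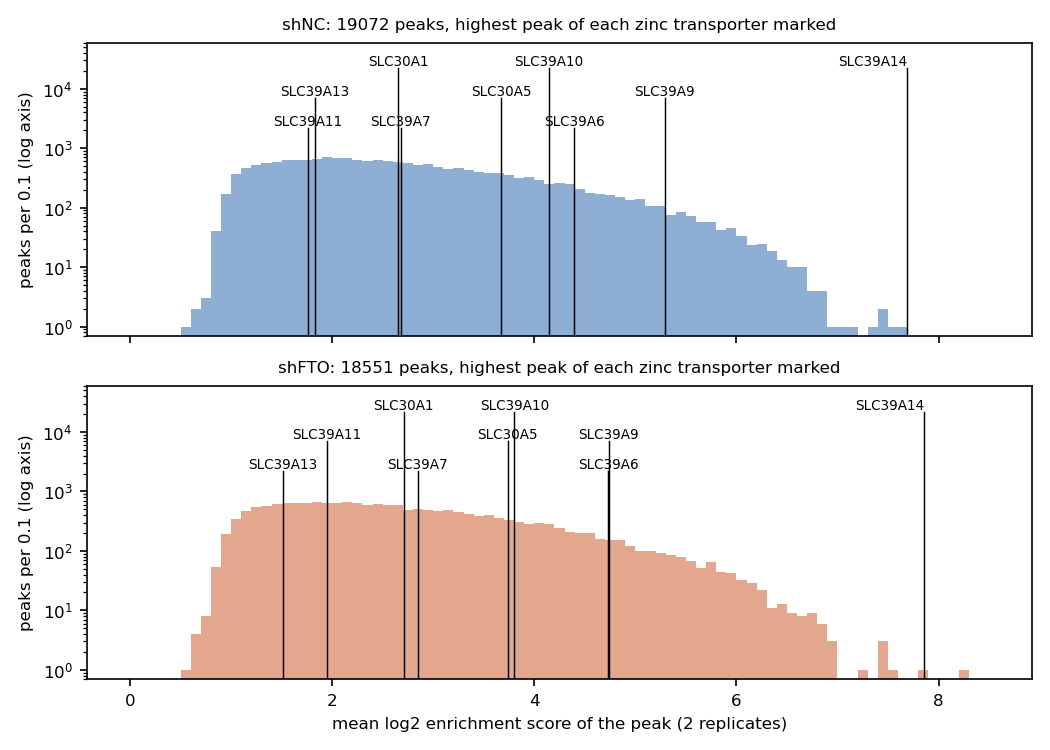
Number of peaks per 0.1 of mean log2 enrichment score (2 replicates) on a log axis, for shNC above and shFTO below, with a black line at the highest peak of each of the 9 zinc transporters. SLC39A14 lies at the upper end of both lists at 7.69 and 7.86, and the other genes lie between 1.51 and 5.29.

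To compare the groups, pairs of peaks on the same isoform with at least 1 bp in common and no other partner were fitted with limma, 2 replicates against 2, over all 12117 pairs of 7833 genes. Peaks without a partner, 2778 in shNC and 2636 in shFTO, and peaks with several partners did not enter this fit. With 2 replicates per group, it can miss real differences. No pair of any gene passed an adjusted p of 0.05 (0%), and 725 pairs (5.98%) had an unadjusted p under 0.05 in limma, 279 of them higher and 446 lower in shFTO. This split depended on single libraries in both groups. Without shFTO replicate 2 there were 320 higher and 298 lower, and without shNC replicate 1 there were 329 higher and 367 lower. It stayed without shNC replicate 2 (298 and 545) and without shFTO replicate 1 (306 and 618). The members gave 12 pairs in 8 genes. None of the 11 pairs tested passed either threshold, and their adjusted p in limma lay between 0.907 and 0.9996. The median difference, shFTO minus shNC, was -0.16 over the 12 pairs and -0.20 without the SLC39A14 pair, against -0.01 over all pairs. The sign of the members' median was not stable, at 0.05 with peak centres within 50 nt (11 pairs), 0.05 with a mean score of at least 2 (9 pairs) and 0.12 without shFTO replicate 2. Pairs kept under the centre or score limit had unchanged differences, so the median moved there with the set of pairs. It stayed below 0 with at least 50% of both peaks shared (-0.03, 14 pairs) and with overlapping peaks joined (-0.12, 13 pairs).

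In 5 member pairs the mean was higher in shFTO and in 7 it was lower, where 51.6% of all pairs were lower. Both shFTO replicates lay below both shNC replicates in 3 of the 12 member pairs, where 17.7% of all pairs had this arrangement, and above both in 0 of 12, where 15.7% of all pairs had it. The 3 pairs were the 5′UTR peak of SLC39A9, the coding peak of SLC39A10 and the 3′UTR peak of SLC39A13.

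**Figure D3:**
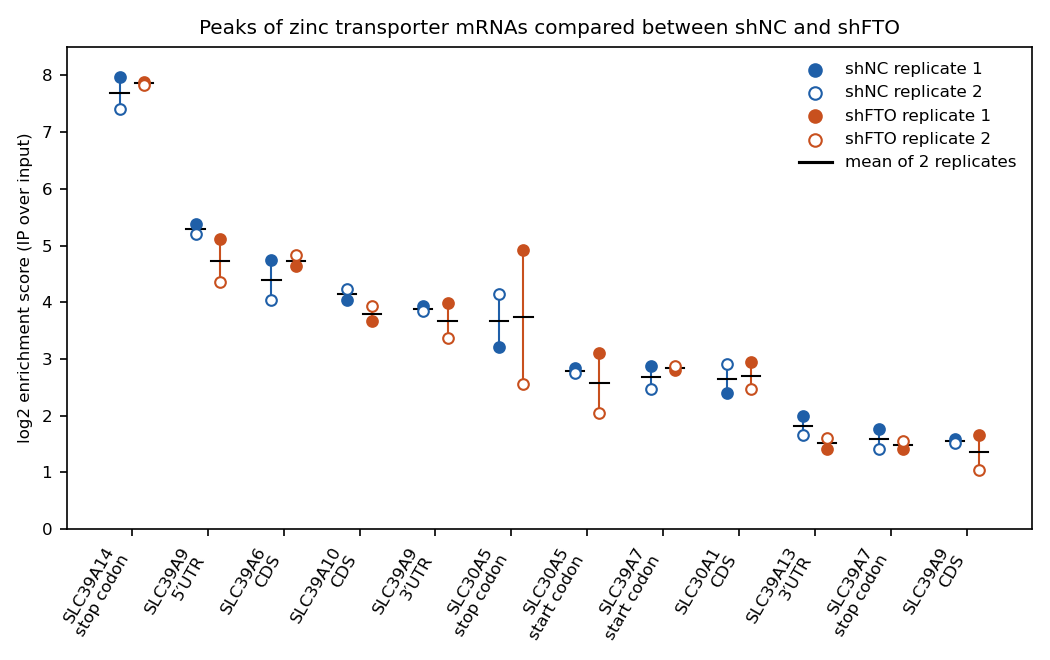
Log2 enrichment score of each of the 12 compared member peaks, with filled circles for replicate 1, open circles for replicate 2, and a black bar at the mean of 2 replicates for shNC (blue) and shFTO (orange). The groups overlap in 9 of the 12 peaks, and the widest gap between replicates is that of the SLC30A5 stop codon peak in shFTO.

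The importers of the cell surface, SLC39A6 and SLC39A10, are close relatives that can assemble with each other. SLC39A6 (chromosome 18, 36108531 to 36129340) had 1 coding peak, at 681 to 925 in shNC and 678 to 924 in shFTO, with scores of 4.75 and 4.04 in shNC and of 4.64 and 4.83 in shFTO. The groups overlapped, and the difference of 0.34 (95% interval -0.41 to 1.09) had an adjusted p of 0.967 in limma. The SLC39A6 peak stood at the 89.7th percentile of the shNC list and the 93.2nd of the shFTO list.

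SLC39A10 (chromosome 2, 195613029 to 195737700) also had its highest peak in the coding sequence, at 736 to 1014 in shNC and 642 to 1013 in shFTO. It scored 4.05 and 4.24 in shNC and 3.66 and 3.94 in shFTO, so that the groups did not overlap. The difference was -0.34 with an SE of 0.29 (-1.003 to 0.32) and an adjusted p of 0.956 in limma, and it was -0.20 without shFTO replicate 1 and -0.48 without shFTO replicate 2. Around this peak the lists differed. A start codon peak at 201 to 490, with 1.87 and 2.61, was listed in shNC only, and a stop codon peak at 2690 to 2930, with 2.36 and 2.19, in shFTO only. These stood at the 40.0th and 41.8th percentile of their lists, and no score of the other group exists for them.

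SLC39A9 (chromosome 14, 69398384 to 69462390), a ZIP of the secretory pathway, had 3 peaks in each list, more than any other member in shFTO and as many as SLC39A11 in shNC. The 5′UTR peak, at 76 to 597 in shNC and 67 to 588 in shFTO, scored 5.38 and 5.20 in shNC and 5.11 and 4.36 in shFTO. Both shFTO values were below both shNC values, and 1 of them, replicate 2, was well below the rest. The means were 5.29 ± 0.12 and 4.74 ± 0.53, a difference of -0.55 with an SE of 0.34 (-1.31 to 0.21), or 0.681 times the shNC enrichment. This was the largest difference in size among the member pairs and had the smallest p, 0.133 before adjustment and 0.907 after it in limma, and 85.8% of all pairs differed by less. Leaving out shFTO replicate 2 brought the difference to -0.18 and leaving out shFTO replicate 1 brought it to -0.93.

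The level of the 5′UTR peak of SLC39A9 was high for its region, above 98.3% of the 5′UTR peaks of the shNC list, whose median was 2.31, and above 96.8% of those of the shFTO list. Its 2 sites lie 518 and 477 nt before the start codon. The 3′UTR peak of SLC39A9, whose site lies 3169 nt after the stop codon, scored 3.94 and 3.84 in shNC and 3.98 and 3.37 in shFTO. Its coding peak was lower, with 1.59 and 1.51 in shNC and 1.67 and 1.05 in shFTO. In both of these peaks the groups overlapped, with differences of -0.21 (-0.93 to 0.51) and -0.20 (-0.92 to 0.52) and an adjusted p of 0.985 for each in limma. In all 3 peaks of SLC39A9 the lowest of the 4 values was that of shFTO replicate 2.

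SLC39A7 (chromosome 6, 33200867 to 33204437) releases zinc from the endoplasmic reticulum. Its peak at the start codon, with 3 GGACU sites, scored 2.88 and 2.48 in shNC and 2.81 and 2.88 in shFTO, a difference of 0.17 (-0.51 to 0.84) with an adjusted p of 0.989 in limma. At the stop codon it scored 1.77 and 1.42 in shNC and 1.41 and 1.55 in shFTO, a difference of -0.12 (-0.79 to 0.55) with an adjusted p of 0.991 in limma. The groups overlapped in both peaks. For this gene the start codon peak was the higher one, at the 67.0th percentile of the start codon peaks of shNC and the 74.3rd of shFTO, while its stop codon peak stood at the 13.5th and 9.70th percentile of the stop codon peaks.

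SLC39A13 (chromosome 11, 47407276 to 47416500), which moves zinc out of vesicles and is mutated in a connective tissue disorder, had a 3′UTR peak that scored 1.99 and 1.66 in shNC and 1.42 and 1.60 in shFTO. The groups did not overlap, and the difference of -0.32 (-0.99 to 0.35) had an adjusted p of 0.965 in limma. Leaving out shNC replicate 1 brought it to -0.15 and leaving out shNC replicate 2 brought it to -0.48. A start codon peak at 109 to 210 was listed in shFTO only. With 0.99 and 0.90 it was the lowest and, at 102 nt, the narrowest member peak, at the 0.712th percentile of its list.

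SLC39A11 (chromosome 17, 72645949 to 73092688) had peaks in the 3′UTR only, 3 in shNC and 2 in shFTO, over nearly the same stretch. The shNC peaks scored 1.64 and 1.82 at 1391 to 1647, 1.28 and 2.24 at 1648 to 1949, and 1.20 and 1.68 at 1959 to 2213. In shFTO the peak at 1368 to 1651 scored 2.28 and 1.62, and the peak at 1710 to 2213 scored 2.47 and 1.15. Replicate 2 was the higher one in all 3 shNC peaks and the lower one in both shFTO peaks. Because each shFTO peak overlapped 2 shNC peaks, they are not among the 12 pairs. Joined into 1 place, with the highest score of each replicate, they differed by 0.11 (-0.73 to 0.94), with an adjusted p of 0.997 in limma.

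Of the exporters, SLC30A1 (chromosome 1, 211571568 to 211579161) sends zinc out across the plasma membrane. Its 1 coding peak scored 2.41 and 2.90 in shNC and 2.94 and 2.47 in shFTO, and the groups overlapped with a difference of 0.05 (-0.68 to 0.79) and an adjusted p of 0.9996 in limma. The level lay near the middle of the lists, at the 53.3rd percentile in shNC and the 55.8th in shFTO.

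SLC30A5 (chromosome 5, 69094014 to 69131069) loads zinc into the early secretory pathway. Its start codon peak scored 2.83 and 2.75 in shNC and 3.11 and 2.05 in shFTO, a difference of -0.21 (-1.07 to 0.64) with an adjusted p of 0.989 in limma. The stop codon peak scored 3.21 and 4.14 in shNC and 4.92 and 2.56 in shFTO. Its shFTO replicates thus enclosed both shNC replicates. The difference of 0.06 (-1.45 to 1.57) had an adjusted p of 0.9996 in limma and the widest interval of the member pairs.

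The 2 shFTO replicates of the SLC30A5 stop codon peak were 2.36 apart, a gap reached by only 0.124% of the peaks of the shFTO list, and those of its start codon peak were 1.06 apart, a gap reached by 5.10%. Replicate 1 was the higher one in both. Without shFTO replicate 1 the stop codon difference was -1.12, and without shFTO replicate 2 it was 1.24, so 1 library decided its direction. Over the 12 member pairs, replicate 2 was below replicate 1 in 9 pairs of shNC and 7 of shFTO, where 61.1% and 54.8% of all pairs had it below.

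**Figure D4:**
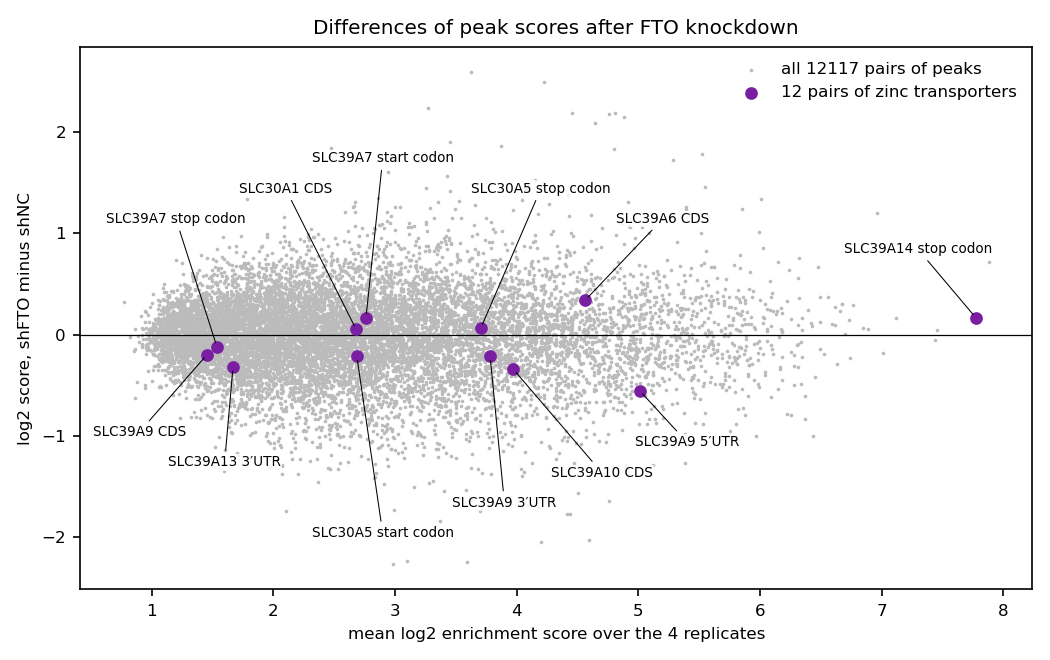
Difference of the log2 score, shFTO minus shNC, against the mean log2 score of the 4 replicates, for all 12117 pairs of peaks (grey) and the 12 member pairs (purple, named by gene and region). The member pairs lie between -0.55 and 0.34, inside the spread of all pairs, and SLC39A14 lies near the right edge with a difference of 0.17.

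At 1 bp of overlap, 1 of the 16 shNC member peaks (6.25%) and 2 of the 16 shFTO member peaks (12.5%) had no partner, against 14.6% and 14.2% of all peaks. With centres within 50 nt as the criterion, 5 member peaks in each group had none. Those without a partner at 1 bp of overlap were the start codon peak of SLC39A10 in shNC, the stop codon peak of SLC39A10 in shFTO and the start codon peak of SLC39A13 in shFTO. The lists cannot tell a peak that fell short of the thresholds from one on an mRNA with too few reads. The same holds for SLC39A8, the closest relative of SLC39A14, which had no peak in either group.

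Of 26 further genes of zinc transport, sensing and storage, 6 were listed with a peak for shNC and 7 for shFTO. They gave 7 pairs in 6 genes, of which 5 were higher and 2 lower in shFTO, where 51.6% of all pairs were lower. Their median difference was 0.09, and in limma none passed an adjusted p of 0.05 and none an unadjusted p under 0.05. The highest was the coding peak of SLC30A6, the partner of SLC30A5 in the secretory pathway, with 6.13 and 6.41 in shNC and 6.43 and 6.30 in shFTO and 2 GGACU sites. MTF1, the transcription factor that senses zinc and induces metallothioneins and SLC30A1, had a coding peak with 4.96 and 5.19 in shNC and 5.93 and 5.21 in shFTO. Both shFTO values of this peak were above both shNC values, with a difference of 0.50 (-0.26 to 1.25) and an adjusted p of 0.933 in limma. In the start codon peak of MTF1 the groups overlapped, with a difference of 0.20. The start codon peak of SLC39A1, also named after its values were seen, had both shFTO values above, with a difference of 0.44. Over all pairs, 15.7% had both shFTO values above and 17.7% had both below. The stop codon peak of SLC30A7, a ZnT of the secretory pathway, went the other way with 2.65 and 3.11 in shNC and 2.60 and 1.14 in shFTO. Its difference of -1.01 (-2.05 to 0.03) was the largest in size of this list, with both shFTO values below both shNC values, an unadjusted p of 0.0557 and an adjusted p of 0.832 in limma, and it was singled out after its values were seen. SLC30A9, a mitochondrial zinc exporter, had a stop codon peak with 4.96 and 4.97 in shNC and 5.33 and 3.76 in shFTO, where the shFTO replicates enclosed the shNC replicates. None of the 10 metallothionein genes, which encode small zinc-binding proteins, had a peak in either list. For these and the other unlisted genes, the lists cannot tell a peak below the thresholds from an mRNA with too few reads. No share over all genes is given beside these counts, since the lists name only genes with a peak.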

How the data were processed

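m6A-seq was analysed for Mel624 cells with shNC or shFTO, 2 replicates per group. The authors trimmed adapters (cutadapt) and mapped reads with TopHat2 (version 2.0.14) against hg38. Reads were projected onto each gene's longest RefSeq isoform, and windows enriched in IP over input were merged into peaks. The deposited values are log2 enrichment scores per replicate, with no scaling by library or by the amount of mRNA. The sources used here do not say how replicates were merged into 1 list. Peak borders are the deposited positions on the isoforms. Depth is unknown, and scores below 1 occurred in 733 shNC and 819 shFTO peaks.

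Peaks were paired by at least 1 bp of overlap and 1 partner each, and compared with limma version 3.58.1 in R 4.3.3 (lmFit and eBayes, group as the only term, two-sided, Benjamini-Hochberg over all pairs). The fit was tested on simulated data. Python 3.11.15 was used for the rest, and share intervals are exact Clopper-Pearson. The members and gene lists were chosen with earlier results of these data known. All peaks of the 5 members with the highest peaks were to be named and the rest summarised, with the 3 highest genes of the zinc list and the 5 genes nearest to SLC39A14. Peaks of the remaining members are given too, added after their values were seen. Sites were read from GENCODE version 44 (not all of their sequences are reported here), and 10055 of 10075 gene identifiers were found in the RefSeq table. Alternatives were other definitions of a pair, a score minimum, centring, a block, trended and robust eBayes, and leaving out each replicate.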

Additional observations from a re-analysis of the deposited data

How the results depend on the processing

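Over all pairs, limma's count of peaks at an adjusted p under 0.05 was 0 as reported and in every alternative that kept all replicates, and between 0 and 11 when 1 replicate was left out (0 without shNC replicate 1, 6 without shNC replicate 2, 7 without shFTO replicate 1 and 11 without shFTO replicate 2). With all replicates kept, limma's count at an unadjusted p under 0.05 went from 725 of 12117 pairs to between 502 and 934. The lowest was 502 of 12117 with the replicate block, with 182 higher in shFTO against 279. The highest was 934 of 14927 with at least 50% of both peaks shared, a definition that gave more pairs. No member peak passed in any alternative, with a lowest adjusted p of 0.8735 in limma with all replicates and 0.551 with 1 left out, where the single library of that group is assumed to vary like the other group. The members' median difference lay between -0.24 and 0.12 with 1 replicate left out. With the changed set of pairs, it turned from -0.16 to 0.05 with peak centres within 50 nt (11 pairs) or with a mean score of at least 2 (9 pairs). Single peaks changed sign only when a replicate was left out, over these ranges: -0.30 to 0.057 (without shNC replicate 1) for the SLC39A7 stop codon peak, -0.20 to 0.30 for SLC30A1 (below 0 without shNC replicate 1 and, at -0.18, without shFTO replicate 1), -1.12 (without shFTO replicate 1) to 1.24 for the SLC30A5 stop codon peak (-0.40 without shNC replicate 1), -0.035 (without shNC replicate 2) to 0.37 for the SLC39A7 start codon peak, -0.014 (without shNC replicate 2) to 0.69 for SLC39A6, and, above 0 without shFTO replicate 2 only, -0.51 to 0.11 for the SLC39A9 coding peak, -0.52 to 0.10 for its 3′UTR peak and -0.75 to 0.32 for the SLC30A5 start codon peak. The untested SLC39A14 peak gave -0.12 without shNC replicate 2. The shFTO share with GGACU went from 50% to 12.5% within 50 nt of the centre. Peaks without a partner rose to 5 in each group with centres within 50 nt, and shFTO had 1 among peaks with a mean score of at least 2. With fewer samples, narrower definitions or another set of pairs these values move by construction, and the cause of the other shifts was not tested. The labels give both groups the numbers 1 and 2 without calling them pairs. The deviations of same-numbered replicates correlated at -0.273 over 12117 pairs of peaks. Whether same-numbered replicates shared a preparation was not tested. With the replicate block, 0 pairs passed an adjusted p of 0.05 and 502 an unadjusted one in limma, and the members' median stayed at -0.16. The depth behind the scores is unknown, and its limits could not be given.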
